A study of Mus musculus with 8 samples.

Results

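The 9 genes described here are interferon-stimulated genes: the RNA sensor Ifih1, the transcription factors Stat2, Irf9 and Irf7, and the effectors Isg15, Ifit1, Ifit3, Bst2 and Ifitm3. They were chosen by name out of 27178 genes in the deposited tables, and all 9 are listed for every library, with Ifit1 at 0 counts in wild type 1 and PlyA-KI 1. Messenger RNA of embryonic mouse cortex had been sequenced in 2 experiments on the long noncoding RNA Lockd. In the knockdown experiment, ICR embryos were electroporated in utero at E14.5 (embryonic day) with plasmid at 3 µg/µl. The control group received a control plasmid, whose insert the labels do not describe, and the shRNA group received a plasmid expressing a short hairpin RNA against Lockd. At E16.5, cells with GFP were sorted from both groups, so control cells share the electroporation, the plasmid DNA, the GFP and the sort with the shRNA cells. The knock-in experiment used pooled whole cortices taken at E13.5 from C57BL/6 embryos, wild type or PlyA-KI (an allele the labels name but do not spell out), with no electroporation and no sort. Each of the 4 groups has 2 libraries, which the labels call biological replicates. The question put to the data was whether electroporated cells carried more RNA of these genes than cortex that had not been electroporated, and whether the hairpin added to it.

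Double-stranded RNA in the cytoplasm is sensed by the helicases encoded by Ifih1 (MDA5) and Ddx58 (RIG-I), which signal through Mavs to the factors IRF3 and IRF7 and so to the type I interferon genes. Secreted interferon binds the receptor IFNAR1/IFNAR2, the kinases JAK1 and TYK2 phosphorylate STAT proteins, among them STAT2, which acts with IRF9 in the complex ISGF3. ISGF3 binds the interferon-stimulated response element (ISRE) in the promoters of many antiviral genes, some of which are also reached by IRF3 or IRF7 directly. Short hairpin RNAs and plasmid DNA are both known as possible triggers of such responses in cultured cells.

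The promoters of 4 effectors are shown for their matches to the ISRE, and that of Irf7, the factor with the widest called difference below, is shown beside them because it has none in this window. Each sequence holds the 200 bases before the transcript start used in RefSeq's promoter table (GRCm38.p6), 5′ to 3′ on the strand of the gene, and capitals mark each match to the ISRE core GAAANNGAAA, or TTTCNNTTTC on the other strand.
Isg15 (chr4:156200819-156201018, minus strand): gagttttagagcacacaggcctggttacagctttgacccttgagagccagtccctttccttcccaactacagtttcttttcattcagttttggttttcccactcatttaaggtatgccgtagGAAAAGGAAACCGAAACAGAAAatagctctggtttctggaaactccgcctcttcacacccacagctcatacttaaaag
Ifit1 (chr19:34640689-34640888, plus strand): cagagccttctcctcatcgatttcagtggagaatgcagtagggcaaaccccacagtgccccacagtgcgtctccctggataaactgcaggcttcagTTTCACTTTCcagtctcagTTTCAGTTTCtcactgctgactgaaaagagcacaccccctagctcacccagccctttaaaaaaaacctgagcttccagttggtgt
Ifit3 (chr19:34583329-34583528, plus strand): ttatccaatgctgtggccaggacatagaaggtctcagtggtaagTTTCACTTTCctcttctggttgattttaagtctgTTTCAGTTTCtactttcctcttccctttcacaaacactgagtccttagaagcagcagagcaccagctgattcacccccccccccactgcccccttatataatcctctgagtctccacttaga
Bst2 (chr8:71537473-71537672, minus strand): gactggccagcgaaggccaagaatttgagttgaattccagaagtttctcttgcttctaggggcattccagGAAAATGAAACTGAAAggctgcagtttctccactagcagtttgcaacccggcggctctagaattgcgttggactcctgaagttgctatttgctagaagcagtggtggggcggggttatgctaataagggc
Irf7 (chr7:141266425-141266624, minus strand): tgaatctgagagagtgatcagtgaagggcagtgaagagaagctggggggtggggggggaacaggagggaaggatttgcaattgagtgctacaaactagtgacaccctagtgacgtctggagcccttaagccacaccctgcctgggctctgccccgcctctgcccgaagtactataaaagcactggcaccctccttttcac

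All 9 genes had a window in that table, reaching from 250 bases before the start to 50 after it. An ISRE match lay in a window of 7 of the 9, against 1079 of 27025 genes with a window (3.99%). In Isg15, 3 overlapping matches began 78, 72 and 66 bases before the start. In Bst2, 2 overlapping matches began 130 and 124 bases before it. Ifit1 had matches 104 and 85 bases before its start, and Ifit3 had them 156 and 122 bases before. The other matches were in Stat2, 222 bases before the start, and downstream of the start in Ifih1 and Ifitm3. The 50 bases after the Stat2 start were not found in a transcript of that gene, so its window is less certain. Irf7 and Irf9 had no match in their windows. The STAT-dimer motif GAS (TTCNNNGAA, which reads alike on both strands) was found in Bst2 and Ifitm3, overlapping an ISRE match in each, and in 9.55% of all genes with a window. These matches are letters in the reference sequence and were not measured as sites of binding.

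Totals ran from 12805874 to 15911118 counts in electroporated libraries and from 35167646 to 47460020 in cortex libraries. The unit below is CPM (the count scaled by its library's total), in which 3 counts equal 0.189 to 0.234 CPM in electroporated and 0.0632 to 0.0853 CPM in cortex libraries. Lockd itself was at 8.9 and 7.8 CPM in control, 4.85 and 2.83 in shRNA, 22.1 and 24.0 in wild type and 0.102 and 0.0569 in PlyA-KI. Replicates differed by more than sampling noise in every group. The summed level of 16 cortical progenitor and neuron markers was 8399 to 9239 CPM in the 4 electroporated libraries and 5003 to 6841 CPM in the 4 cortex libraries. Electroporation, sorting, age, strain and sequencing depth all differ between the experiments and cannot be told apart. In bulk RNA, a change in the number of cells of a type and a change in RNA per cell cannot be told apart either.

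In electroporated cells, 6 of the 9 genes (Irf7, Ifit1, Isg15, Ifitm3, Bst2 and Irf9) were higher than in unelectroporated cortex. The fitted ratios ran from 1.7-fold for Irf9 to 18.7-fold for Ifit1, with 15.1-fold for Irf7 next. Ifit1 had 6 counts summed over the cortex libraries and did not pass the filter on low counts there. It entered the test through its electroporated counts, where it is high. Ifih1, Stat2 and Ifit3 did not pass the test. The comparison took the mean of the control and shRNA groups against the mean of the wild-type and PlyA-KI groups with the quasi-likelihood test of edgeR, adjusted by the Benjamini-Hochberg method. It called 72.1% of the 15641 genes tested, 35% as higher and 37.1% as lower in electroporated cells, and the 6 higher calls among 9 are to be read against that 35%. The median log2 fold change was 2.04 over the 9 genes and -0.03 over all genes. DESeq2 also called 6 of the 9 as higher, and 34.8% of all genes.

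**Figure D1:**
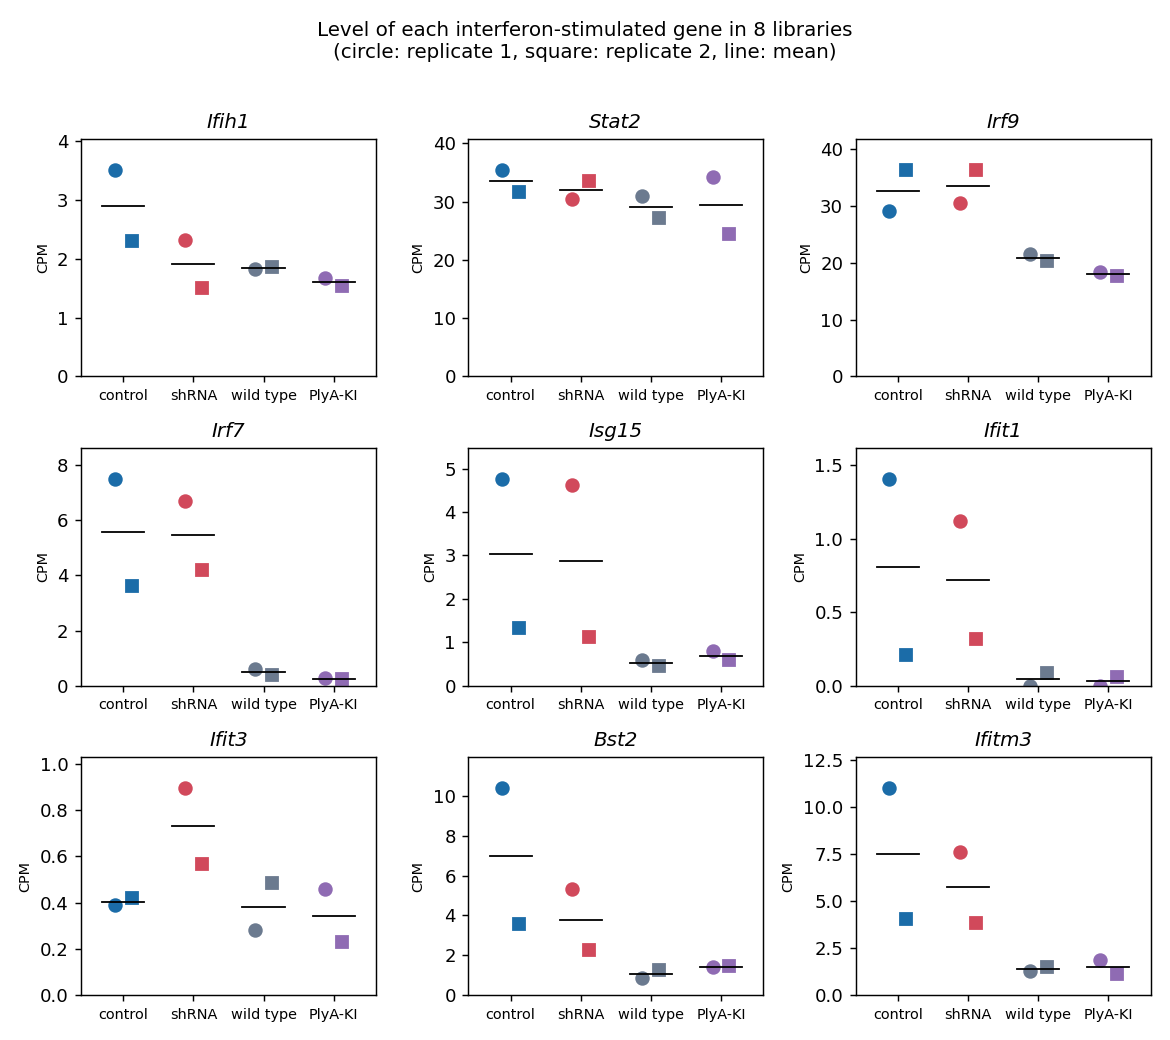
Level of each gene in CPM (linear axis from 0) in the 4 groups; circles are replicate 1, squares replicate 2, lines group means. Irf7, Isg15, Ifit1, Bst2, Ifitm3 and Irf9 lie higher in all 4 electroporated libraries than in all 4 cortex libraries, and in Isg15, Ifit1, Bst2 and Ifitm3 replicate 1 lies above replicate 2 in both electroporated groups.

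The sensor gene Ifih1 (Entrez 71586, chromosome 2, 62595618 to 62646255) was at 3.51 and 2.30 CPM in control, 2.31 and 1.51 in shRNA, 1.83 and 1.85 in wild type and 1.68 and 1.54 in PlyA-KI. Control 1 was the highest and shRNA 2 the lowest library, and the electroporated and cortex ranges overlapped. The fitted difference was 0.44 on the log2 scale (SE 0.25, edgeR adjusted p = 0.127). An uncharacterised gene overlaps Ifih1 in the annotation. Whether reads were counted by strand is not given in the sources used here, and some reads could belong to that neighbour.

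Stat2 (Entrez 20847, chromosome 10, 128270498 to 128292853) encodes the STAT specific to type I and type III interferon signalling. It was at 35.4 and 31.6 CPM in control, 30.5 and 33.4 in shRNA, 30.9 and 27.2 in wild type and 34.2 and 24.4 in PlyA-KI. All 8 libraries lay close together, with the lowest library in PlyA-KI and the highest in control. The difference between the experiments was 0.16 on the log2 scale (SE 0.11, edgeR adjusted p = 0.213). Stat2 overlaps Apof in the annotation, so its counts are uncertain in the same way as those of Ifih1.

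Irf9 (Entrez 16391, chromosome 14, 55603985 to 55610030) encodes the DNA-binding subunit of ISGF3. Its level was 29.1 and 36.4 CPM in control, 30.5 and 36.3 in shRNA, 21.5 and 20.3 in wild type and 18.4 and 17.7 in PlyA-KI. Every electroporated library was above every cortex library, and replicate 2 was the higher one in both electroporated groups. The mean was 33.1 ± 3.83 CPM in electroporated cells (SD, n = 4) and 19.5 ± 1.73 in cortex (SD, n = 4), a 1.7-fold difference (log2 0.76, SE 0.11, edgeR adjusted p = 2.68e-05).

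Irf7 (Entrez 54123, chromosome 7, 141263183 to 141266499) encodes the interferon-inducible factor that amplifies type I interferon production. It was at 7.50 and 3.62 CPM in control, 6.72 and 4.21 in shRNA, 0.610 and 0.400 in wild type and 0.280 and 0.228 in PlyA-KI. Control and shRNA overlapped, while the lowest electroporated library was far above the highest cortex library. The means were 5.51 ± 1.88 and 0.380 ± 0.170 CPM (SD, n = 4 each), and the fitted ratio was 15.1-fold (log2 3.92, SE 0.32, edgeR adjusted p = 2.27e-07). Summed over libraries, 305 counts stood against 62, a ratio of pooled CPM of 14.0 with an exact 95% interval of 10.7 to 18.8 that covers counting error only.

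Among the effectors, Isg15 (Entrez 100038882, chromosome 4, 156199424 to 156200818), which encodes a ubiquitin-like protein joined to other proteins in interferon responses, was at 4.76 and 1.32 CPM in control, 4.63 and 1.13 in shRNA, 0.585 and 0.464 in wild type and 0.789 and 0.597 in PlyA-KI. Replicate 1 of each electroporated group was well above replicate 2, and both replicates 2 were still above all cortex libraries. The fitted ratio was 4.8-fold (log2 2.26, SE 0.47, edgeR adjusted p = 0.000729). Without shRNA 1 the log2 difference was 1.61 and still called. A predicted gene overlaps Isg15 in the annotation, which leaves its counts uncertain in the same way as those of Ifih1.

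Ifit1 (Entrez 15957, chromosome 19, 34640889 to 34650009), whose product binds foreign RNA by its 5′ end, had 18 and 3 counts in control, 15 and 5 in shRNA, 0 and 4 in wild type and 0 and 2 in PlyA-KI. As CPM these are 1.41, 0.209, 1.12 and 0.314 in electroporated cells and 0, 0.0843, 0 and 0.0569 in cortex. The groups did not overlap, although control 2 was at the limit of 3 counts and 3 of the 4 cortex libraries were under it. Summed, 41 counts stood against 6, a ratio of pooled CPM of 19.5 (exact 95% interval 8.24 to 56.2, counting error only). The fitted log2 difference was 4.23 (SE 0.90, edgeR adjusted p = 0.000939). It was 3.32 without control 1, 5.86 without wild type 2 and 5.58 without PlyA-KI 2. Without wild type 2 or PlyA-KI 2 the library left in that group had 0 counts, so these larger values are poorly fixed. Ifit1 overlaps Ifit1bl1, a related gene, so reads could be divided between them.

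Ifit3 (Entrez 15959, chromosome 19, 34583119 to 34588982), a partner of Ifit1 in the same family, was at 0.390 and 0.418 CPM in control, 0.895 and 0.566 in shRNA, 0.280 and 0.485 in wild type and 0.458 and 0.228 in PlyA-KI. These are 5 to 12 counts per electroporated library, and the electroporated and cortex ranges overlapped. The fitted difference was 0.56 (SE 0.47, edgeR adjusted p = 0.295). Its near copy Ifit3b stood at 0.156 CPM or less in every library, and reads could be shared between the copies. Ifit1 and Ifit3 both carry a pair of ISRE matches in the promoters printed above.

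Bst2 (Entrez 69550, chromosome 8, 71534255 to 71537472) encodes tetherin, which holds budding virus particles at the cell surface. It was at 10.4 and 3.55 CPM in control, 5.30 and 2.26 in shRNA, 0.839 and 1.26 in wild type and 1.40 and 1.45 in PlyA-KI. All electroporated libraries were above all cortex libraries, and control 1 was the highest by a wide margin. The fitted ratio was 4.11-fold (log2 2.04, SE 0.35, edgeR adjusted p = 0.000163).

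Ifitm3 (Entrez 66141, chromosome 7, 141009590 to 141010744) encodes a membrane protein that blocks virus entry. Its level was 11.01 and 4.04 CPM in control, 7.61 and 3.83 in shRNA, 1.27 and 1.48 in wild type and 1.83 and 1.11 in PlyA-KI. The electroporated and cortex libraries did not overlap. The fitted ratio was 4.54-fold (log2 2.18, SE 0.32, edgeR adjusted p = 4.45e-05). In all, 6 of the 9 genes had their 4 electroporated libraries above their 4 cortex libraries, beside 31.5% of all tested genes.

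Because CPM does not correct for gene length, levels were set between genes on the deposited FPKM scale. The mean FPKM over the 4 cortex libraries was 7.25 for Irf9, 6.64 for Stat2, 2.19 for Ifitm3, 1.61 for Bst2, 0.805 for Isg15, 0.313 for Ifih1, 0.204 for Irf7, 0.181 for Ifit3 and 0.0134 for Ifit1. Irf9 and Stat2, both subunits of ISGF3, thus stood first in cortex. In electroporated cells the mean FPKM was 12.3 for Irf9, 10.2 for Ifitm3, 7.45 for Stat2, 6.99 for Bst2, 3.92 for Isg15, 2.97 for Irf7, 0.436 for Ifih1, 0.289 for Ifit1 and 0.284 for Ifit3. Ifit1 and Ifit3 do not differ beyond their spread there, nor do Irf9 and Ifitm3, since the latter varied from 3.83 to 11.01 CPM among the same libraries.

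The difference was present in cells that had received the control plasmid. In control against wild type the same 6 genes were higher and none was lower, where 28.8% of all genes tested were called higher. This comparison uses libraries of the one above and is not independent of it, and Ifit1 again entered through its electroporated counts. The log2 differences were 3.97 for Ifit1 (SE 1.20, edgeR adjusted p = 0.0124), 3.43 for Irf7 (SE 0.44, edgeR adjusted p = 2.39e-05) and 2.68 for Bst2 (SE 0.49, edgeR adjusted p = 0.000462). They were 2.50 for Isg15 (SE 0.67, edgeR adjusted p = 0.00604), 2.42 for Ifitm3 (SE 0.45, edgeR adjusted p = 0.00054) and 0.63 for Irf9 (SE 0.15, edgeR adjusted p = 0.00293). Irf7, Bst2, Ifitm3 and Irf9 are also the ones whose call did not need control 1. Without that library 4 genes were called, the difference of Isg15 was 1.35 (edgeR adjusted p = 0.172) and that of Ifit1 was 2.12 (edgeR adjusted p = 0.358). Without wild type 1, Ifit1 missed the threshold as well (3.13). Without wild type 2 its value was 7.27, poorly fixed because the wild-type library left had 0 counts. Bst2 and Ifitm3 were at 1.75 and 1.56 without control 1, both still called. Without control 2, Bst2 was at 3.27, Isg15 at 3.16 and Ifit1 at 4.81.

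**Figure D2:**
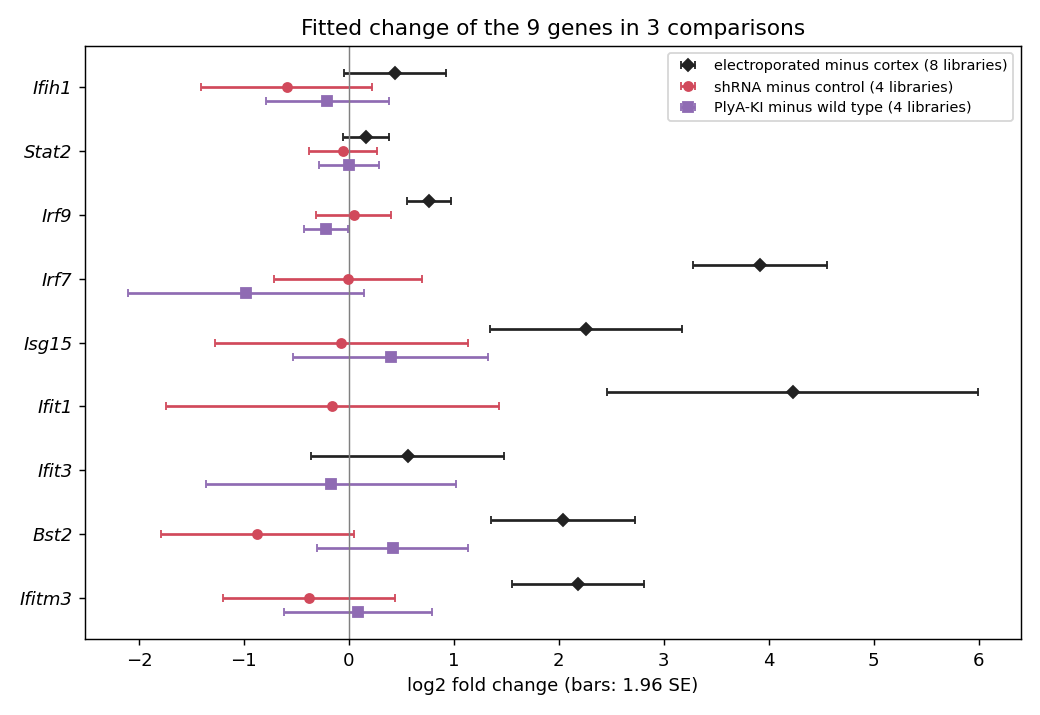
Fitted log2 fold change of each gene with 1.96 SE to either side in electroporated cells against cortex, in shRNA against control and in PlyA-KI against wild type; genes removed by the filter on low counts have no point. The 6 called genes lie right of 0 in the first comparison, from 0.76 for Irf9 to 4.23 for Ifit1, while the intervals of the other comparisons include 0 except that of Irf9 in PlyA-KI against wild type (-0.43 to -0.01, edgeR adjusted p = 0.432).

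No member passed the test in shRNA against control, where the hairpin against Lockd is the labelled difference. Since the insert of the control plasmid is not described, an effect of any hairpin and an effect of plasmid electroporation cannot be told apart here. The filter on low counts removed Ifit3, and of the other 8 members edgeR called 0, as it did of all 13758 genes tested (0%). At an unadjusted p under 0.05 it also counted 0 members, beside 7.51% of all genes. DESeq2 gave 6 of the 8 no adjusted p, called 0 of the others, and called 0.502% of the genes it adjusted. At an unadjusted p under 0.05 it counted 0 members and 5.41% of all genes. The differences of the factors were small, with -0.05 for Stat2 (SE 0.17), 0.05 for Irf9 (SE 0.18) and -0.01 for Irf7 (SE 0.36) on the log2 scale. For Irf7 an interval of 1.96 SE ran from -0.71 to 0.70. The effectors were less precise: the interval was -1.28 to 1.14 for Isg15, -1.74 to 1.43 for Ifit1 and -1.79 to 0.05 for Bst2. Differences within these intervals are not excluded by 2 libraries a group. Bst2 gave the smallest p of the 8, with a fitted log2 difference of -0.87 (SE 0.47, edgeR adjusted p = 0.78). Its value moved with each library of the experiment. Without control 2 it was -1.44 (edgeR adjusted p = 0.038), and without control 1 it was 0.08. It was -1.59 without shRNA 1 (edgeR adjusted p = 0.087) and -0.37 without shRNA 2.

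In PlyA-KI against wild type, neither electroporated, Ifit1 was removed by the filter and edgeR called 0 of the other 8 members, beside 0.052% of the 15398 genes tested. DESeq2 gave an adjusted p to only 2 of the 8, Stat2 and Irf9, and called 0 of these, beside 0.958% of the genes it adjusted. At an unadjusted p under 0.05 the count of members was 0 with either tool, beside 12.5% of all genes with edgeR and 9.71% with DESeq2. Irf7 had the widest fitted difference, -0.98 on the log2 scale (SE 0.57, edgeR adjusted p = 0.505), from 24 and 19 counts in wild type and 11 and 8 in PlyA-KI. The difference between the knockdown and knock-in responses was itself tested, as an interaction term over all 8 libraries. Of the 9 members edgeR called 0 (0.0128% of all genes) and DESeq2 0 (0.163%), with 2 members given no adjusted p. At an unadjusted p under 0.05 edgeR counted 0 members beside 7.04% of all genes, and DESeq2 0 beside 5.91%. The interaction value of Bst2 was -1.28 (SE 0.69, edgeR adjusted p = 0.758), and it ran from -2.02 to -0.34 when each library was left out in turn.

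Within the knockdown experiment, replicates of the same plasmid stood apart in several members. Replicate 1 over replicate 2 was 3.6 in control and 4.09 in shRNA for the CPM of Isg15, 6.73 and 3.56 for Ifit1, 2.92 and 2.34 for Bst2, and 2.73 and 1.99 for Ifitm3. For Irf7 this ratio was 2.07 and 1.59, and for Ifih1 it was 1.53 and 1.53. Thus 6 of the 8 members tested there were higher in replicate 1 of both groups, as were 32.5% of all 13758 genes, and Irf9 was lower in replicate 1 of both, as were 27.9% of all genes. In the cortex libraries the ratio lay between 0.664 and 1.65 for Isg15, Bst2, Ifitm3, Irf7 and Ifih1. The labels do not say what, if anything, replicates of the same number share. The same direction, replicate 1 above replicate 2 in both electroporated groups, was found for 24 of 33 other interferon-stimulated genes and 9 of 11 negative regulators. It was also found for 8 of 10 MHC class I genes, 4 of 7 endothelial, 3 of 5 pericyte and meningeal and 6 of 19 microglial markers. In the remaining lists it held for 3 of 8 genes of the sensor list, 3 of 11 adaptors and kinases, 2 of 8 receptor and kinase genes and 2 of 5 further STAT and IRF genes. It held for 4 of 16 cortical and 0 of 2 erythroid markers.

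**Figure D3:**
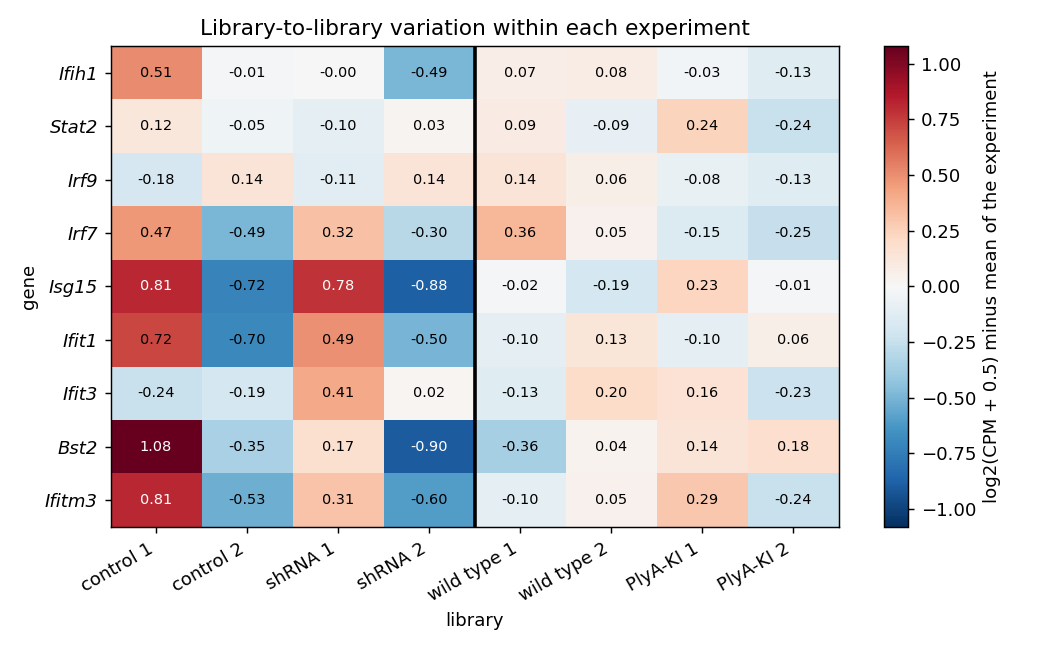
Level of each gene in each library, as log2(CPM + 0.5) minus the gene's mean over the 4 libraries of its experiment; the vertical line divides the knockdown from the knock-in experiment. Control 1 and shRNA 1 are above their experiment's mean in Isg15, Ifit1, Bst2, Ifitm3 and Irf7, and below it in Irf9.

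The genes whose library-to-library pattern was most like that of the members were found by Pearson's r. It was taken between log2(CPM + 0.5), centred within each experiment, and the mean pattern of 7 members. These 7 passed the filter on low counts in both experiments. Their mean is not a pattern that all of them share. Isg15 was at r = 0.84 with Bst2 and 0.92 with Ifitm3, but Irf9 was at -0.83 with Isg15 and -0.86 with Bst2. Stat2 was at 0.14 with Isg15 and 0.08 with Bst2. The genes compared with them had a mean of 1 CPM or more. Over 8 libraries and 13445 genes, the highest r was that of Ddx58, which encodes the RNA sensor RIG-I (r = 0.983). Ddx58 was at 10.8 and 6.55 CPM in control, 8.21 and 5.66 in shRNA, 4.98 and 4.53 in wild type and 5.17 and 4.55 in PlyA-KI. It was higher in electroporated cells (log2 0.68, SE 0.18, edgeR adjusted p = 0.00492). Antkmt (r = 0.98), Wrap73 (r = 0.979), Rwdd2a (r = 0.978) and H2ac11 (r = 0.971) came next. Antkmt was at 13.3 to 22.8 CPM in electroporated and 18.0 to 22.4 CPM in cortex libraries, so these ranges overlapped, as did those of Rwdd2a. Wrap73 and H2ac11 were higher in every electroporated library than in any cortex library. The points share their library totals and the correlations are given as a description.

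Between electroporated cells and cortex, counts of other pathway genes are to be read against the 35% of all genes called higher and 37.1% called lower. No interferon gene was measurable: of 21 listed, 16 had 0 counts in all 8 libraries, including Ifnb1, and the summed counts of all 21 were 0, 0, 2 and 0 in control 1, control 2, shRNA 1 and shRNA 2 and 0, 2, 0 and 4 in the cortex libraries. All but the last of these sums are under 3 counts, and the near-identical Ifna copies can lose reads in counting, so interferon RNA was not detectable at this depth. The list of sensors also held Nod1 and Adar, which are not sensors of RNA or DNA. Of its 10 tested genes 4 were higher (Ddx58, Zbp1, Nod1 and Adar) and 4 lower. The double-stranded RNA editor Adar was higher (log2 0.45, SE 0.08), while the RNA-activated kinase Eif2ak2 (-0.62, SE 0.11), the endosomal RNA receptor Tlr3 (-1.75, SE 0.39) and the DNA sensor Aim2 (-2.93, SE 0.16) were lower. Of 13 tested adaptors and kinases, 3 were higher and 5 lower. Trim25, a ubiquitin ligase that acts on RIG-I, was higher (2.31, SE 0.15), and so was the NF-kappaB subunit Rela (0.77, SE 0.08). The adaptor Mavs was lower (-1.49, SE 0.15), as was Nfkb1 (-0.73, SE 0.09).

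Downstream of interferon, 4 of 9 receptor and kinase genes were higher and 3 lower, with Jak2 at 0.67 (SE 0.08), Tyk2 at 0.49 (SE 0.09), Ifnlr1 at -3.33 (SE 0.70) and Il10rb at -1.27 (SE 0.29) on the log2 scale. Among 5 further STAT and IRF genes 1 was called, Irf1, at 0.83 (SE 0.20, edgeR adjusted p = 0.00195).

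Among 43 other interferon-stimulated genes that were tested, 23 were called higher and 5 lower. Their median log2 difference was 0.91, against -0.03 over all genes. The summed CPM of the 53 listed was 347.7 and 264.7 in control and 260.5 and 211.6 in shRNA. It was 238.0 and 261.6 in wild type and 228.3 and 235.7 in PlyA-KI, so these ranges overlapped. Ifi27 was higher (5.14, SE 0.35), as were the GTPase gene Irgm1 (2.80, SE 0.20) and the nucleotide kinase gene Cmpk2 (2.38, SE 0.17). Samhd1, a dNTP hydrolase gene, was lower (-1.75, SE 0.09). Of 11 negative regulators 6 were higher and 4 lower. Usp18 and Socs1 did not pass the filter in the cortex libraries alone and entered through their electroporated counts. Usp18 encodes the protease that removes ISG15 from proteins, and it was at 8.51 and 6.76 CPM in control, 6.34 and 4.15 in shRNA, and 0.114 to 0.255 in the cortex libraries (log2 5.01, SE 0.30, edgeR adjusted p = 1.15e-08). The cytokine signalling inhibitor Socs3 (1.64, SE 0.14) and the phosphatase gene Ptpn1 (0.81, SE 0.08) were higher too. Socs1, another such inhibitor, was called higher (edgeR adjusted p = 4.89e-07) at 1.63 to 3.83 CPM in electroporated cells and 0.153 CPM or less in cortex. All 10 MHC class I genes were higher, with a median of 2.68, and of these Psmb9 entered only through its electroporated counts. H2-D1, for example, was at 154 and 124 CPM in control, 77.3 and 55.7 in shRNA and 6.72 to 10.2 in cortex.

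In shRNA against control, 31 of the 33 other interferon-stimulated genes tested had a fitted value below 0 and 2 above, with a median of -0.44 against 0.00 over all genes. EdgeR called 0 of them. DESeq2 gave 24 of the 33 no adjusted p and called 0 of the rest. At an unadjusted p under 0.05 edgeR counted 5, beside 7.51% of all genes, and DESeq2 1, beside 5.41%. Of the 10 MHC class I genes, 8 had a value below 0 (median -0.97). EdgeR called 0 of these 10 and counted 7 under an unadjusted p of 0.05, beside 7.51% of all genes. DESeq2 gave 6 no adjusted p and called 3 as lower, beside 0.328% of all genes it adjusted.

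**Figure D4:**
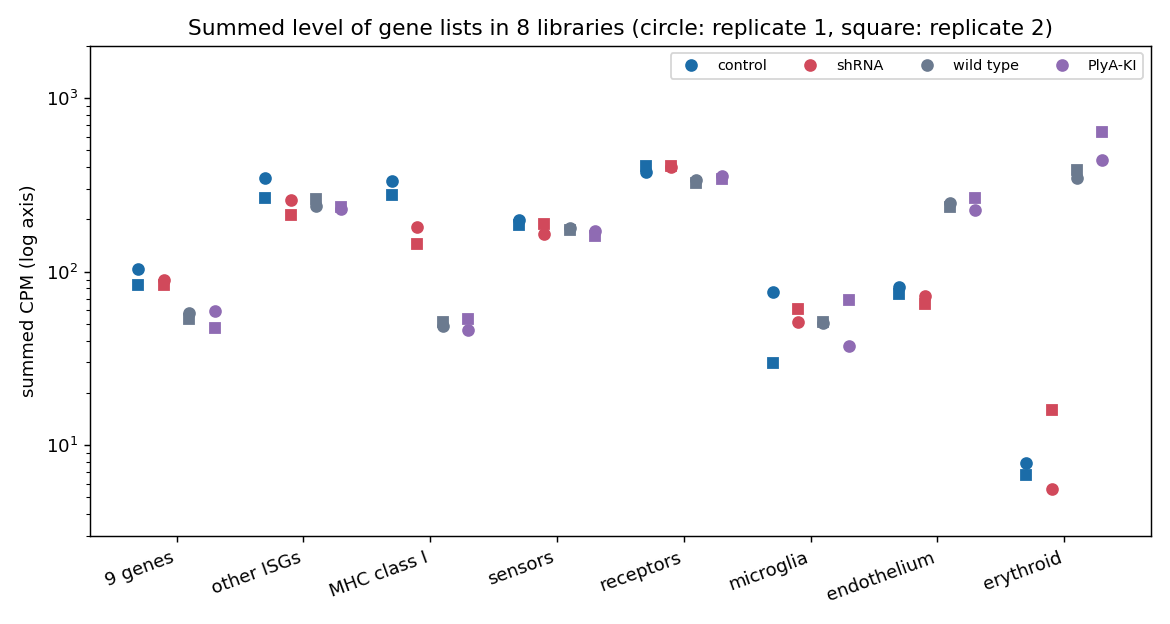
Summed CPM of gene lists in each library (log axis); circles are replicate 1, squares replicate 2, colours the 4 groups. The 9 members and the MHC class I genes are higher in the electroporated libraries. The other interferon-stimulated genes (other ISGs) and the microglial markers overlap. Endothelial and erythroid markers are lower in the electroporated libraries.

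Cells other than cortical progenitors and neurons can carry these transcripts, so their markers were measured beside them. The summed CPM of 20 microglial and macrophage markers was 76.1 and 29.7 in control, 51.0 and 61.2 in shRNA, 50.3 and 51.0 in wild type and 37.3 and 68.3 in PlyA-KI. These ranges overlap. The 9 members, whose sum is mostly Stat2 and Irf9, summed to 83.4 to 103.5 CPM in electroporated and 47.3 to 59.1 CPM in cortex libraries. Of the 20 markers, 7 were called higher and 4 lower in electroporated cells, and Pf4 was at 0 in control 2. In shRNA cells the microglial sum was higher in replicate 2 and Isg15, Ifit1, Bst2 and Ifitm3 were higher in replicate 1. In control cells both were higher in replicate 1. The part of microglia in the members' levels was not tested. Endothelial markers summed to 65.2 to 81.5 CPM in electroporated and 226.9 to 265.4 CPM in cortex libraries. Pericyte and meningeal markers summed to 7.80 to 15.2 and 174.5 to 398.2 CPM, and erythroid markers to 5.60 to 15.9 and 347.2 to 634.3 CPM. The 6 called members were higher in the libraries with less vascular and blood RNA. The part of vascular and blood cells in the members' levels was not tested.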

How the data were processed

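Reads were processed with bcl2fastq, Trimmomatic, HISAT2 and featureCounts on mm10, per the submitters' processing notes. Versions and strand setting are not stated there. The authors deposited whole-number counts per gene and, beside them, FPKM values, which were used only to set levels between genes. Of 27178 Entrez identifiers, 25274 were named with RefSeq's gene table (GRCm38.p6). Levels are CPM of the deposited library total, with no further factor. Counts were tested with edgeR 4.0.16 in R 4.3.3 (filterByExpr, TMM factors 0.9909 to 1.0155, quasi-likelihood, two-sided, threshold 0.05). Knockdown and knock-in were each fitted on their own 4 libraries, and comparisons between experiments on all 8. The step was run on simulated data with the same spread for all genes and changes only in better expressed genes, so it does not cover low-count members. Alternatives were DESeq2 1.42.0, its size factors, other filters and fits, a replicate block and leaving out each library. The text names all 9 members, the tested genes of each list with the smallest p, and the 5 most alike genes. Members, lists and rules were chosen with earlier results of these data known. No label names litters, so the spread behind a p-value is that between libraries and may be technical. The exact intervals of pooled counts cover counting error only. Intervals built from the SE use that of the edgeR fit, which also takes in the spread between libraries.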

Additional observations from a re-analysis of the deposited data

How the results depend on the processing

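The count of 6 members higher in electroporated cells was 6 or 7 under every alternative run, with Stat2 joining (0.29, adjusted p = 0.0362) without PlyA-KI 1. In control against wild type it was 4 to 6 over the fits without 1 library, and 5 in a fit of those 4 libraries, where Ifit1 was not tested. In shRNA against control it was 0 to 1 over those fits, the 1 being Bst2 without control 2, and 0 under all other settings. The knock-in and interaction counts stayed at 0. The counts of higher members are to be read against the share of all genes called higher. In the main fits that share was 35% for electroporated cells against cortex and 28.8% for control against wild type. With DESeq2 it was 34.8% in the former, and shares under the other alternatives are not given here. None of the values that changed sign had been called. Irf7 in the knockdown turned to 0.01 with no filter, and Stat2 in the knock-in to -0.00 with no filter and -0.01 in 1 fit of all 8 libraries. Replicate numbers are not said to pair samples: deviations of same-numbered libraries correlated across 12763 genes at 0.26 for knockdown and 0.223 for knock-in libraries. With the replicate block, Irf7 turned to 0.03 in the knockdown and Stat2 to -0.01 in the knock-in, the members called stayed at 0 in both, and calls over all genes went from 0 to 161 and from 8 to 2193.

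Leaving out each library in turn, log2 values in shRNA against control ran from -0.12 to 0.03 for Stat2, -0.11 to 0.24 for Irf9, -0.43 to 0.59 for Irf7, -1.39 to 1.10 for Isg15, -1.29 to 1.71 for Ifit1, -1.59 to 0.08 for Bst2 and -0.94 to 0.50 for Ifitm3. In the knock-in they ran from -0.25 to 0.22 for Stat2, -0.76 to 0.29 for Ifit3 and -0.31 to 0.39 for Ifitm3, and in control against wild type from -0.28 to 0.51 for Ifit3. The interaction ran from -0.26 to 0.20 for Stat2, -1.80 to 0.70 for Isg15, -2.80 to 3.24 for Ifit1 and -1.04 to 0.40 for Ifitm3. Where 1 library remains in a group it is assumed to vary like the other groups. Calls over all genes in the knockdown were 184 with no filter, 53 in 1 fit of all 8 libraries, 49 with DESeq2 and 18 to 133 without 1 library. In the knock-in they were 484, 4, 116 and 48 to 565. For the interaction the count of 2 became 97 with no filter, 61 with the block, 22 with DESeq2 and 2 to 8 without 1 library. The causes were not tested. Depth limits Ifit1 and Ifit3 most, with 23 counts or fewer in any library.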
